A study of Mus musculus with 10 samples.

Results

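T cell receptor variable segments and constant regions were followed in 10 RNA sequencing libraries made from regulatory T (Treg) cells of the mouse. Members were chosen by name. They were all genes that begin with Trav (alpha chain variable segments) or Trbv (beta chain variable segments), with the constant regions Trac, Trbc1, Trbc2, Trdc, Trgc1, Trgc2, Trgc3 and Trgc4. They came to 173 of the 55291 genes in the count table, namely 130 Trav, 35 Trbv and 8 constant region genes. The LN group held 4 libraries of Treg cells from lymph nodes of mice without a tumour. The Hepa1-6 group held 4 libraries of Treg cells from tumours grown for 23 days after subcutaneous injection of Hepa1-6, a mouse hepatoma line. The E.G7 group held 2 libraries of Treg cells from tumours grown for 21 days after subcutaneous injection of E.G7, a mouse T lymphoma line derived from EL4. All groups shared the Foxp3YFP-cre allele, in which a fluorescent reporter and Cre recombinase follow Foxp3 expression. The labels give a sort from CD4+ T cells for the tumours. They give neither the animals' age nor whether replicates came from different animals. A p-value here compares libraries, and how far libraries of a group lie apart can be technical variation alone. The fits of gene levels share their estimate of spread over all groups. For the exact permutation tests, the smallest possible p is set by the number of libraries.

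A T cell builds its receptor by joining variable (V), diversity and joining (J) segments, and splices the joined exon to a constant region. An alpha and a beta chain make up the receptor of most T cells, Treg cells included, while a smaller lineage uses gamma and delta chains. Each cell carries few productive rearrangements, so a mixed population spreads its transcripts over many segments and a single clone puts its transcripts on few V segments per chain.

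Library totals ranged from 22665563 to 26665325 counts, of which Trav segments took 5486 to 7364 and Trbv segments 6359 to 19631. Foxp3, the defining transcription factor of Treg cells, averaged 109 ± 10.8 CPM (counts per 1000000 counts of the library, scaled by TMM; SD, n = 4) in LN, 82.0 ± 11.0 CPM (n = 4) in Hepa1-6 and 50.2 ± 4.34 CPM (n = 2) in E.G7. The 5 Treg genes together went the other way, summing to 2531 to 2657 in LN, 3284 to 3364 in Hepa1-6 and 2767 to 2792 CPM in E.G7. Of them Ctla4, an inhibitory receptor, was higher in both tumours than in LN (log2 fold changes 1.78 and 1.62). Lower than in LN were 3 in Hepa1-6 and 4 in E.G7, where 31.1% and 27.2% of all genes tested were lower. Transcripts of other cells differed between groups. The summed level of 10 CD8 T and NK cell genes was 64.1 to 75.9 in LN, 1174 to 1262 in Hepa1-6 and 401 to 410 CPM in E.G7, and Ncr1 was at 0 in LN. That of 7 macrophage and neutrophil genes was 24.5 to 35.7, 3158 to 3500 and 662 to 701 CPM, and that of 5 hepatoma genes 28.6 to 34.6, 1988 to 2150 and 124 to 139 CPM. The 7 immature thymocyte and T lymphoma genes summed to 103 to 109 in LN, 116 to 129 in Hepa1-6 and 247.0 to 247.4 CPM in E.G7. Among them Trap1a, known from tumour lines, averaged 0.0488, 0.0516 and 127 CPM, and Dntt, which adds bases at the joins, averaged 2.30, 2.84 and 46.6 CPM. Without Trap1a and Dntt, left out after their values were seen, the other 5 summed to 100.2 to 107 in LN, 113 to 126 in Hepa1-6 and 71.6 to 76.1 CPM in E.G7. In E.G7 against LN 4 of the 7 were tested, with 3 higher and 1 lower (Cd1d1, log2 fold change -0.92). Of all genes tested 32.7% were higher and 27.2% lower in that comparison. Rag2 was at 0 in LN and E.G7. Rag1 had no count in any library, which allows up to 0.110 to 0.124 CPM (3 counts per library, counting error only). The part of these transcripts in the receptor results was not tested.

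Beta chain transcripts were lower in the tumour groups, whereas alpha chain transcripts differed far less. Summed Trbv levels were 675, 757, 662 and 686 in LN, 273, 263, 268 and 300 in Hepa1-6, and 300 and 308 CPM in E.G7. The tumour libraries did not overlap with LN. The means were 695 ± 42.4 CPM (SD, n = 4), 276 ± 16.4 CPM (SD, n = 4) and 304 ± 5.46 CPM (SD, n = 2). In bulk RNA, fewer cells of a type and less RNA per cell cannot be told apart. The exact two-sided permutation test gave p = 0.0286 for Hepa1-6 against LN, the smallest that 4 against 4 libraries allow, and p = 0.0667 for E.G7 against LN, the smallest for 2 against 4. After Benjamini-Hochberg adjustment over the 18 tests on chain totals, largest shares and effective numbers, both were 0.0923. No test of the 18 could pass 0.05 after adjustment, whatever the data, because so few libraries keep the exact p too large. Summed Trav levels averaged 268 ± 13.8 in LN (SD, n = 4), 253 ± 10.4 in Hepa1-6 (n = 4) and 209 ± 7.55 CPM in E.G7 (n = 2). For these LN and Hepa1-6 overlapped (exact permutation p = 0.143, adjusted 0.171), and E.G7 lay below both.

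The constant regions showed the same difference between chains. Trbc1 and Trbc2 are the alternative beta chain constant regions, each with its own cluster of J segments. Trbc1 was 494, 566, 463 and 495 in LN, 199, 195, 208 and 220 in Hepa1-6, and 218 and 229 CPM in E.G7. It fell by 1.30 on the log2 scale in Hepa1-6 against LN (SE 0.06, adjusted p = 2.42e-11, edgeR quasi-likelihood test) and by 1.18 in E.G7 (SE 0.08, adjusted p = 3.19e-09). Trbc2 fell by 1.39 (SE 0.06, adjusted p = 2.52e-12) and by 1.09 (SE 0.07, adjusted p = 1.95e-09) in the same edgeR comparisons. The share of Trbc1 in both genes' counts stayed between 28.9% and 32.0% over the 10 libraries. Beta chain J segments (Trbj) did not show the same constancy. Those named Trbj1 held 58.3% to 60.8% of Trbj counts in LN, 52.2% to 59.8% in Hepa1-6 and 51.7% to 55.3% in E.G7, without a test. Of the 8 constant regions, 7 passed the filter on low counts. In Hepa1-6 against LN 1 was higher and 5 lower, where 68% of all 20068 genes tested were called (37% higher, 31.1% lower). In E.G7 against LN 2 were higher and 5 lower, with 59.9% of all genes called (32.7% higher, 27.2% lower).

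Trac, the alpha chain constant region, was close to level. It was 991, 1080, 968 and 1025 in LN, 1078, 1026, 1059 and 1086 in Hepa1-6, and 876 and 900 CPM in E.G7. LN and Hepa1-6 overlapped (log2 fold change 0.06, SE 0.04, adjusted p = 0.197 in edgeR), and upper-quartile scaling turned the sign (log2 fold change -0.12, adjusted p = 0.0214). Trac fell by 0.19 in E.G7 (SE 0.05, adjusted p = 0.00487 in edgeR), while scaling to the summed Trac, Trbc1 and Trbc2 counts, which include Trac itself, gave a log2 fold change of 0.50 beside a median of 0.70 over all genes. With TMM scaling, leaving out E.G7 replicate 1 gave a log2 fold change of -0.17, and the fall was not called. Per Trac count, Trbc1 and Trbc2 together gave 1.64 ± 0.0506 counts in LN (SD, n = 4), 0.611 ± 0.0284 in Hepa1-6 (n = 4) and 0.866 ± 0.0185 in E.G7 (n = 2), with no overlap between groups. This ratio does not depend on the scaling of libraries.

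**Figure D1:**
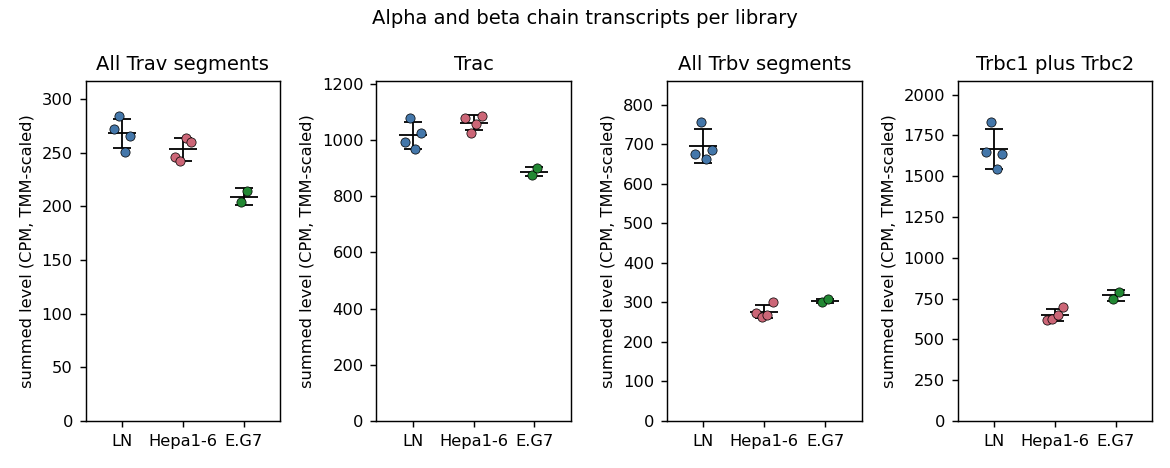
Summed levels in CPM (TMM-scaled) of Trav segments, Trac, Trbv segments and Trbc1 plus Trbc2 in LN, Hepa1-6 and E.G7; points are libraries, horizontal marks the mean and bars 1 SD. The beta chain panels show LN above both tumour groups (Trbv 695, 276 and 304 CPM), while Trac stays between 876 and 1086 CPM.

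Counts on V segments were also set against those on the constant region of the same chain. There were 26.4 ± 0.726 Trav counts per 100 Trac counts in LN (SD, n = 4), 23.8 ± 0.870 in Hepa1-6 (n = 4) and 23.6 ± 0.407 in E.G7 (n = 2). Trbv counts per 100 Trbc counts were 41.8 ± 0.864, 42.5 ± 1.26 and 39.6 ± 0.880. Trav counts per 100 Trbv counts averaged 38.6 ± 1.23 in LN, 91.9 ± 5.02 in Hepa1-6 and 68.7 ± 1.25 in E.G7, without overlap between the groups and without a test.

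Of the 35 Trbv segments, 7 had no count in any library and 23 passed the filter. In Hepa1-6 all of those 23 were called lower than in LN, where 31.1% of all genes were, with a median log2 fold change of -1.59 against 0.04 over all genes. In E.G7 21 of 23 were called lower, where 27.2% of all genes were, with a median of -1.24 against 0.01. With scaling to Trac, Trbc1 and Trbc2, 18 were lower and 1 higher in Hepa1-6 (median -0.94 against 0.68 over all genes) and 17 were lower in E.G7 (median -0.55 against 0.70). In Hepa1-6 Trbv21, with 72 counts over all libraries, was not called without Hepa1-6 replicate 3 (adjusted p = 0.0516 in edgeR). Its call was also lost in edgeR with a replicate block (adjusted p = 0.0548) and with scaling to the constant regions (0.0972). The LN libraries are shared by these comparisons. The exceptions in E.G7 were Trbv5 and Trbv21, with adjusted p of 0.191 and 0.0699 in edgeR, named after their values were seen. Trbv5 overlaps 5830405F06Rik, so its reads are uncertain. Trbv12-1 had the largest fall in Hepa1-6 among segments of at least 5 CPM whose libraries did not overlap. It was 27.5, 32.1, 28.2 and 27.9 in LN, 5.39, 6.91, 5.86 and 7.10 in Hepa1-6, and 12.9 and 15.0 CPM in E.G7. The groups formed separate steps, with E.G7 in the middle. Trbv14 fell by 2.15 and Trbv26 by 2.01 in Hepa1-6 against LN on the log2 scale. In E.G7 against LN the largest falls among called segments of at least 5 CPM without overlap were those of Trbv13-3, Trbv31 and Trbv14. They were 1.62, 1.61 and 1.59 on the log2 scale. Over all 23 tested Trbv segments the lowest log2 fold change was -2.25. Trbv29 fell least in Hepa1-6 (log2 fold change -0.33, SE 0.12, adjusted p = 0.023 in edgeR, but 0.31 with adjusted p = 0.0248 when scaled to the constant regions), was not called without LN replicate 1 or 2 or Hepa1-6 replicate 2 or 3 (adjusted p = 0.0524 to 0.0665), and its change in E.G7 was larger (log2 fold change -1.37, SE 0.16, adjusted p = 2.09e-06 in edgeR).

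No Trbv segment held more than 14.02% of Trbv counts in any library, and the 5 leading segments together held 47.7% to 48.9% in LN, 52.5% to 53.4% in Hepa1-6 and 49.0% to 49.7% in E.G7. A share here is a segment's part of all counts on the segments of its chain in a library. Trbv13-2 led the mean shares in all groups. It lies on mm10 at chr6:41121396-41121832 on the plus strand, and the last 300 bases of its coding part are shown because it is the leading segment, with capitals from the conserved cysteine codon to the end, where the third complementarity-determining region (CDR3) begins.
Trbv13-2: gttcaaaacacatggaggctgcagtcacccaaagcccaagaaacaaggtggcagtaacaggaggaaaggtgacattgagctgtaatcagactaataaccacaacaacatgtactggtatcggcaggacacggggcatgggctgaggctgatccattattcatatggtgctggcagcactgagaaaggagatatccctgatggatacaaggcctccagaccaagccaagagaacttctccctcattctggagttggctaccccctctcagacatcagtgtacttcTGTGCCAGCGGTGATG

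Trbv13-2 took 13.2%, 13.1%, 14.02% and 13.5% of Trbv counts in LN, 13.1%, 12.3%, 11.1% and 11.8% in Hepa1-6, and 13.0% in each E.G7 library. Trbv19 was ahead in Hepa1-6 replicate 3 (12.1%) and Trbv3 in Hepa1-6 replicate 4 (12.6%). Per length, Trbv13-2 also led, with mean shares of 15.7%, 14.2% and 15.3% in LN, Hepa1-6 and E.G7. The next segments by mean share of counts in LN were Trbv3 (10.1%), Trbv16 (9.81%), Trbv19 (7.60%) and Trbv1 (6.99%).

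Shares shifted by a few percentage points in the tumours. Trbv19 took 7.43%, 7.68%, 7.96% and 7.31% in the LN libraries, 11.1%, 10.2%, 12.1% and 10.5% in those of Hepa1-6 and 8.83% and 9.12% in those of E.G7. Trbv13-1 averaged 5.67% ± 0.119 in LN (SD, n = 4), 8.56% ± 0.516 in Hepa1-6 (n = 4) and 6.03% ± 0.132 in E.G7 (n = 2). Trbv29 took 2.16% ± 0.203, 4.32% ± 0.258 and 1.91% ± 0.211. In each of these cases every Hepa1-6 library lay above every other library. In the opposite direction, mean shares in Hepa1-6 against LN were 4.33% against 6.74% for Trbv31 and 4.04% against 6.13% for Trbv2. Shares carry no test of their own.

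Trbv15 was the Trbv segment with the largest gain of share in E.G7. Its level was 23.7, 29.3, 24.7 and 23.9 in LN, 10.5, 9.68, 10.2 and 11.5 in Hepa1-6, and 17.7 and 19.1 CPM in E.G7. Its share was 3.65% ± 0.187 in LN (SD, n = 4), 3.79% ± 0.0747 in Hepa1-6 (n = 4) and 6.06% ± 0.220 in E.G7 (n = 2), so that the E.G7 libraries stood above all others in share but below LN in level. The level in E.G7 exceeded that in Hepa1-6 (log2 fold change 0.82, SE 0.13, adjusted p = 6.24e-05 in edgeR) and was lower than in LN (log2 fold change -0.46, SE 0.13, adjusted p = 0.00554 in edgeR, but 0.23 when scaled to the constant regions), the latter not called without E.G7 replicate 1 (adjusted p = 0.0693). The summed level of the 7 immature thymocyte and T lymphoma genes was also highest in E.G7, through Trap1a and Dntt, while the other 5 summed lower there than in LN, and their part in this result was not tested. Trbv3 averaged 10.1% in LN, 11.4% ± 0.989 in Hepa1-6 (SD, n = 4) and 11.98% ± 0.657 in E.G7 (SD, n = 2). Trbv16 averaged 9.81% in LN, 9.15% in Hepa1-6 and 8.01% in E.G7. Trbv13-3 went from 6.64% in LN to 4.93% in E.G7.

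**Figure D2:**
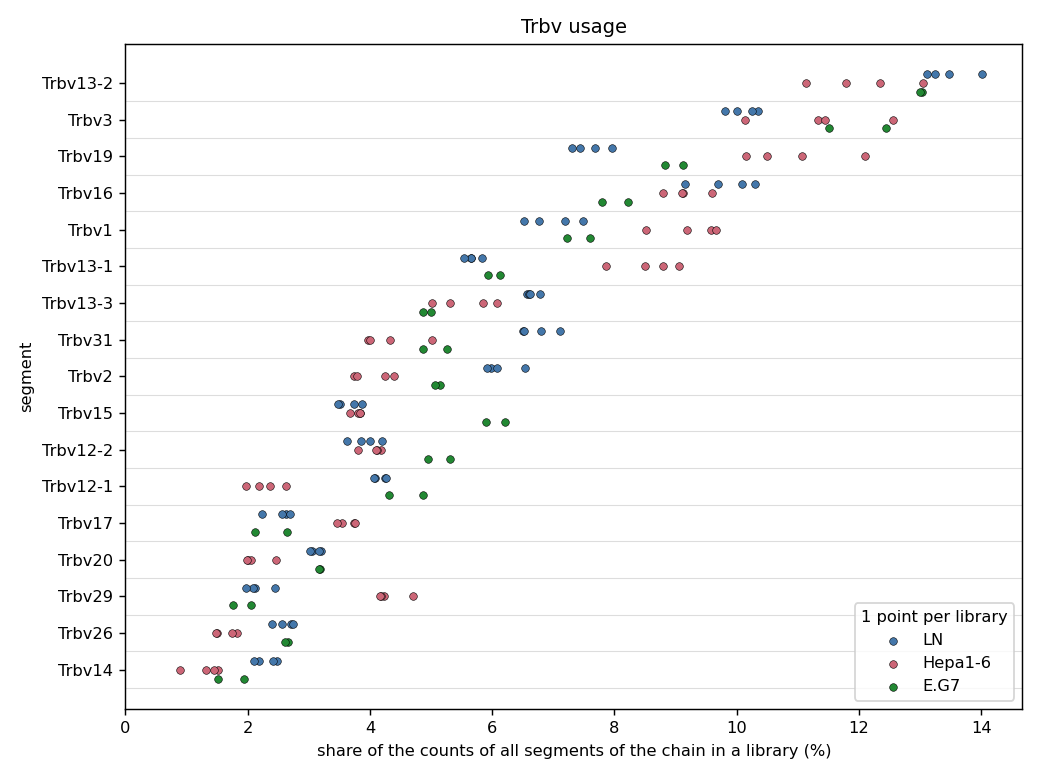
Share of all Trbv counts (%) of each Trbv segment with a mean share above 1%, with 1 point per library in LN, Hepa1-6 and E.G7. Trbv13-2 leads in LN at 13.1% to 14.02%, Trbv19, Trbv13-1 and Trbv29 are shifted up in Hepa1-6, and Trbv15 is at 5.90% and 6.21% in E.G7.

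Between the tumours, 11 of 23 Trbv segments were higher and 3 lower in E.G7 than in Hepa1-6, and of 78 Trav segments 12 were higher and 18 lower, where 45.6% of all genes were called (19.6% higher, 26.1% lower). The median log2 fold change was 0.25 for Trbv and -0.05 for Trav (0.01 with upper-quartile scaling), against -0.06 over all genes. Trbv12-1 (log2 fold change 1.14) and Trbv26 (0.83) had the largest rises among Trbv segments of at least 5 CPM. The largest falls among Trbv segments were those of Trbv29 (1.04 on the log2 scale) and Trbv17 (0.47). Over both chains 23 segments were called higher and 21 lower, and both counts fell when either E.G7 library was left out. Such fits leave 1 library in that group, and fewer of all genes were called in them too.

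Of the 130 Trav segments, 15 had no count in any library and 78 passed the filter. In Hepa1-6 against LN 8 were called higher and 31 lower, where 37% of all genes were higher and 31.1% lower, with a median log2 fold change of -0.50. In E.G7 against LN 4 were higher and 30 lower, where 32.7% of all genes were higher and 27.2% lower, with a median of -0.63. These medians turned to 0.14 and 0.07 when libraries were scaled to the summed counts of Trac, Trbc1 and Trbc2, which moves the median of all genes to 0.68 and 0.70, so they stayed below it. With that scaling 26 V segments of both chains were higher and 32 lower in Hepa1-6, in place of 8 and 54, and 17 higher and 21 lower in E.G7, in place of 4 and 51.

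A few Trav segments stood out against this, and they differed between the tumours. The last 300 coding bases of the 4 that gained most share are shown, 2 for each tumour, with capitals from the conserved cysteine codon to the end. On mm10 and the plus strand, Trav14-2 lies at chr14:53640701-53641225, Trav2 at chr14:52567198-52568051, Trav13n-4 at chr14:53362267-53364106 and Trav9-1 at chr14:53488045-53488567.
Trav14-2: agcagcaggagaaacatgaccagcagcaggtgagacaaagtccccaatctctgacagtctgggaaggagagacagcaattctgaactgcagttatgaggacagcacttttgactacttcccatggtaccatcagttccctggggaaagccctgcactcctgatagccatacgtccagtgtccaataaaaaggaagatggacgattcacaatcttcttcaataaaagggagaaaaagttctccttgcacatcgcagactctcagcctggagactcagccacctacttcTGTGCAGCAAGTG
Trav2: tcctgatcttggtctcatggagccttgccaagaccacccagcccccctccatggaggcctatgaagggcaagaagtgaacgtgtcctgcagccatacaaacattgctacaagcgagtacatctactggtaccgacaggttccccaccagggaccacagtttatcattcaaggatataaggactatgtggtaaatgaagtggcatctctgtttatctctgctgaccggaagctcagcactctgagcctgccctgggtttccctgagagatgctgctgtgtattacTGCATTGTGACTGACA
Trav13n-4: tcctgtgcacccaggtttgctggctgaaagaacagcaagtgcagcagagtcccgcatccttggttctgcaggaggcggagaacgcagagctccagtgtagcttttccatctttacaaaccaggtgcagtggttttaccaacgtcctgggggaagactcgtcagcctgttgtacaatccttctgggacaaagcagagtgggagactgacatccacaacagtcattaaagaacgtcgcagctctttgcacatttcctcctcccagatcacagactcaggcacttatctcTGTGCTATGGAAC
Trav9-1: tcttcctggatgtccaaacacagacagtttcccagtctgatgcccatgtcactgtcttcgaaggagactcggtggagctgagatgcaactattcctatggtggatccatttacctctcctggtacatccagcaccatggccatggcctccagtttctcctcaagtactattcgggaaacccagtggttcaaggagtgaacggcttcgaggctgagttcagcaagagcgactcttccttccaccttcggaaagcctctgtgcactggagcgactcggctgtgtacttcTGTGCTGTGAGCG

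Trav14-2 led Hepa1-6. Its level was 6.88, 7.48, 7.23 and 6.25 in LN, 27.9, 28.9, 29.5 and 33.6 in Hepa1-6, and 3.72 and 2.83 CPM in E.G7. No groups overlapped, and the order was Hepa1-6, LN, E.G7. It was 4.30-fold higher in Hepa1-6 than in LN (log2 fold change 2.11, SE 0.12, adjusted p = 1.72e-10 in edgeR) and fell by 1.09 on the log2 scale in E.G7 (SE 0.16, adjusted p = 2.9e-05 in edgeR). Its share of Trav counts was 11.3%, 11.9%, 11.2% and 12.9% in Hepa1-6 against 2.36% to 2.88% in LN. The nearest other segment, Trav14d-2, differs from it at 9 of 387 aligned transcript bases.

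Trav2 was likewise high in Hepa1-6. It was at 1.34, 1.35, 1.73 and 1.36 in LN, 8.66, 11.8, 10.03 and 12.96 in Hepa1-6, and 1.71 and 1.36 CPM in E.G7. LN and E.G7 overlapped, while all 4 Hepa1-6 libraries were above them. The rise over LN was 7.495-fold (log2 fold change 2.91, SE 0.19, adjusted p = 1.25e-09 in edgeR), and the share went from 0.543% ± 0.0984 (SD, n = 4) to 4.29% ± 0.742 (SD, n = 4). Trav2 has no close copy, its nearest segment sharing 67.1% of aligned bases.

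The other Trav segments called higher in Hepa1-6 than in LN were Trav18 (log2 fold change 2.56), Trav8-2 (1.80), Trav10d (1.54), Trav12-1 (1.12), Trav4-4-dv10 (0.55) and Trav9-1 (0.41). The call for Trav9-1 was lost with merged copies (adjusted p = 0.141 in edgeR), with upper-quartile scaling (0.152), without Hepa1-6 replicate 1 (0.0521) and without LN replicate 3 (0.0575). Trav18 was low throughout, at 0.454 to 0.784 CPM in Hepa1-6. Trav8-2 is annotated as a pseudogene and averaged 1.60 ± 0.170 CPM in LN and 5.59 ± 0.668 CPM in Hepa1-6 (SD, n = 4 each), and with its copies merged its log2 fold change was 0.67. Trav10d differs from its copy Trav10 at 3 of 406 aligned bases. With copies merged, the Trav10 share went the other way, from 3.24% ± 0.506 in LN to 2.53% ± 0.193 in Hepa1-6 (SD, n = 4 each). Trav12-1 averaged 3.67 ± 0.464 and 7.97 ± 0.488 CPM (SD, n = 4 each). Trav18, Trav10d, Trav12-1 and Trav4-4-dv10 were named because they complete the count, after their values were seen. Genes of CD8 T and NK cells were also highest in Hepa1-6, with Cd8a at 2.27, 130 and 22.8 CPM in LN, Hepa1-6 and E.G7, and their part in these results was not tested.

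Trav13n-4 led E.G7. Its level was 1.27, 2.54, 1.81 and 1.55 in LN, 0.613, 0.869, 0.536 and 0.371 in Hepa1-6, and 15.7 and 17.8 CPM in E.G7. No groups overlapped, with E.G7 highest and Hepa1-6 lowest. It was 9.32-fold higher in E.G7 than in LN (log2 fold change 3.22, SE 0.26, adjusted p = 2.4e-08 in edgeR) and 27.8-fold higher than in Hepa1-6 (log2 fold change 4.80, SE 0.29, adjusted p = 1.44e-09 in edgeR). Its share was 7.71% and 8.30% of Trav counts in E.G7, against 0.465% to 0.896% in LN. The nearest other segment, Trav13d-1, differs from it at 20 of 394 aligned bases.

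Trav9-1 came next in E.G7. It was at 7.91, 7.87, 5.82 and 8.66 in LN, 11.2, 10.1, 9.49 and 9.45 in Hepa1-6, and 14.1 and 16.4 CPM in E.G7. The groups did not overlap. It was 2.01-fold higher in E.G7 than in LN (log2 fold change 1.01, SE 0.16, adjusted p = 6.62e-05 in edgeR), and its difference from Hepa1-6 (log2 fold change 0.60) was not called without E.G7 replicate 2 (adjusted p = 0.102). Its copy Trav9d-1, which differs at 2 of 337 aligned bases, had a log2 fold change of 0.72 over LN in E.G7 (adjusted p = 0.0387 in edgeR). That call was lost with upper-quartile scaling (adjusted p = 0.0763), no filter (0.0642) or a replicate block (0.107), without either E.G7 library (0.0826 and 0.207) and without LN replicate 1, 3 or 4 (0.0715 to 0.0911). The fourth call in E.G7, Trav7d-2, rested on replicate 2, with 6 counts in replicate 1 and 119 in replicate 2. Without replicate 2 its log2 fold change was -0.56 (adjusted p = 0.695 in edgeR). Of the immature thymocyte and T lymphoma genes, Trap1a, Dntt and Cd8b1 were higher in E.G7 than in LN and Cd1d1 was lower. Cd8b1, which is also in the CD8 T and NK list, rose more over LN in Hepa1-6 (log2 fold change 2.04) than in E.G7 (0.75). The part of these genes in these results was not tested.

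The Trav segments with the largest losses of share were picked by percentage points, a choice that favours segments common in LN. Trav7-4, the leading Trav segment of every LN library, was at 12.2, 11.8, 11.9 and 12.5 in LN, 10.1, 9.47, 8.71 and 7.96 in Hepa1-6, and 6.69 and 6.22 CPM in E.G7. Its level stepped down from LN to Hepa1-6 to E.G7 without overlap, and its log2 fold change in E.G7 against LN was -0.91 (SE 0.15, adjusted p = 9.84e-05 in edgeR), or -0.22 (adjusted p = 0.265) when scaled to the constant regions. Trav14n-3 fell by 1.38 in Hepa1-6 and by 1.28 in E.G7 on the log2 scale, from a mean share of 3.27% in LN to 1.33% and 1.73%. Trav14d-3-dv8 fell by 0.67 and 0.71, but was not called when scaled to the constant regions (adjusted p = 0.862 and 0.946 in edgeR). Trav9-2 and Trav12-2, also among the 5 most used Trav segments, were not called in either tumour against LN, at mean levels of 9.31, 7.95 and 9.19 CPM and of 8.92, 10.3 and 7.24 CPM in LN, Hepa1-6 and E.G7.

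**Figure D3:**
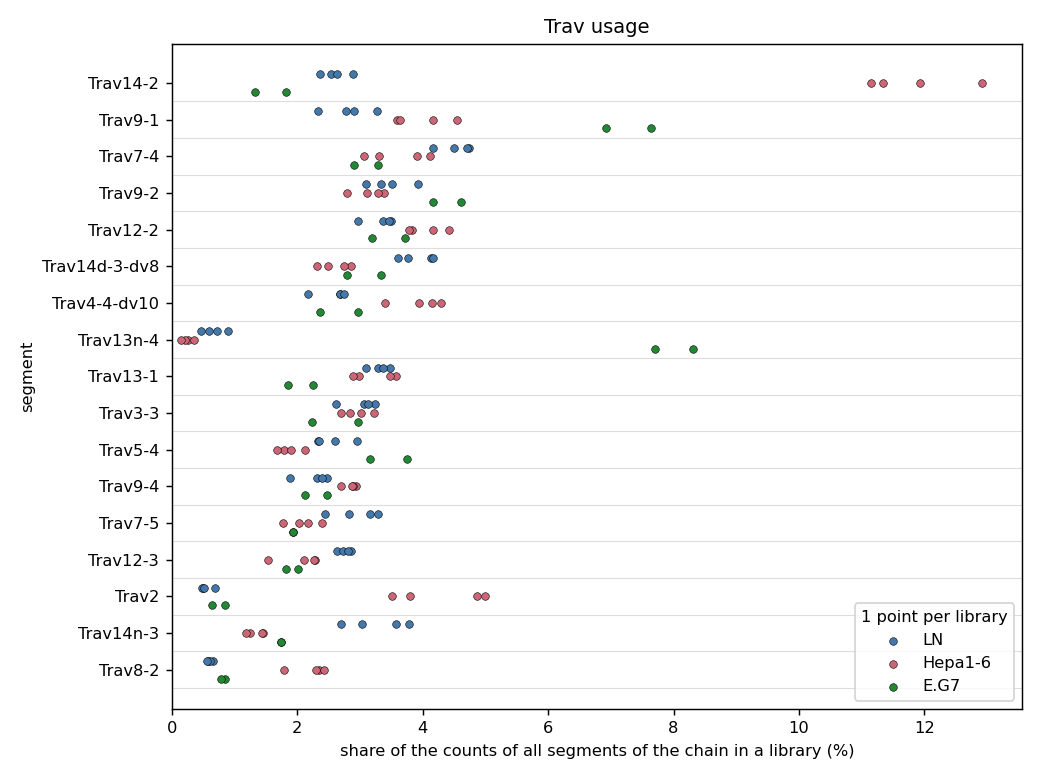
Share of all Trav counts (%) of the most used and most changed Trav segments, with 1 point per library in LN, Hepa1-6 and E.G7. Trav14-2 lies at 11.2% to 12.9% in Hepa1-6, Trav13n-4 at 7.71% and 8.30% in E.G7, and no LN point exceeds 4.74%.

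Evenness was summarised by the effective number of segments, which is 1 divided by the sum of squared shares and equals the number of segments if all are used alike. For Trav it was 47.3, 46.0, 46.0 and 45.0 in LN, 29.8, 28.7, 30.6 and 27.2 in Hepa1-6, and 36.6 and 35.3 in E.G7. The groups did not overlap, and Hepa1-6 was the least even. The mean differences from LN were -17.0 in Hepa1-6 (exact permutation p = 0.0286, adjusted 0.0923) and -10.1 in E.G7 (exact permutation p = 0.0667, adjusted 0.0923). Without the leading E.G7 segment the latter was -6.03. With families of segments merged, the Trav effective numbers were 10.8, 10.3 and 10.7 in LN, Hepa1-6 and E.G7, so that the differences from LN were -0.53 and -0.12 (exact permutation p = 0.0286 and 0.733, unadjusted). The largest Trav share averaged 4.53% ± 0.264 in LN (SD, n = 4), 11.8% ± 0.796 in Hepa1-6 (n = 4) and 8.01% ± 0.419 in E.G7 (n = 2), with the same exact p and adjusted p for these contrasts. With families merged the largest share in E.G7 exceeded that in LN by 0.92 percentage points (exact permutation p = 0.267, unadjusted). The 5 leading segments together held 17.96% to 19.5% of Trav counts in LN, 28.0% to 29.6% in Hepa1-6, while the E.G7 libraries were at 25.9% and 27.4%.

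For Trbv the effective number was 13.9, 13.8, 13.6 and 13.8 in LN, 12.8, 12.8, 12.8 and 12.7 in Hepa1-6, and 13.4 and 13.6 in E.G7. Hepa1-6 lay below LN in each library (difference -1.01, exact permutation p = 0.0286, adjusted 0.0923), and E.G7 overlapped LN (difference -0.25, exact permutation p = 0.200, adjusted 0.212). The largest Trbv share differed by -0.95 percentage points in Hepa1-6 and by -0.45 in E.G7 from LN. In the 2 E.G7 libraries the leading alpha segment differed from that of LN, while the leading beta segment was the same and held at most 13.02% of Trbv counts.

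**Figure D4:**
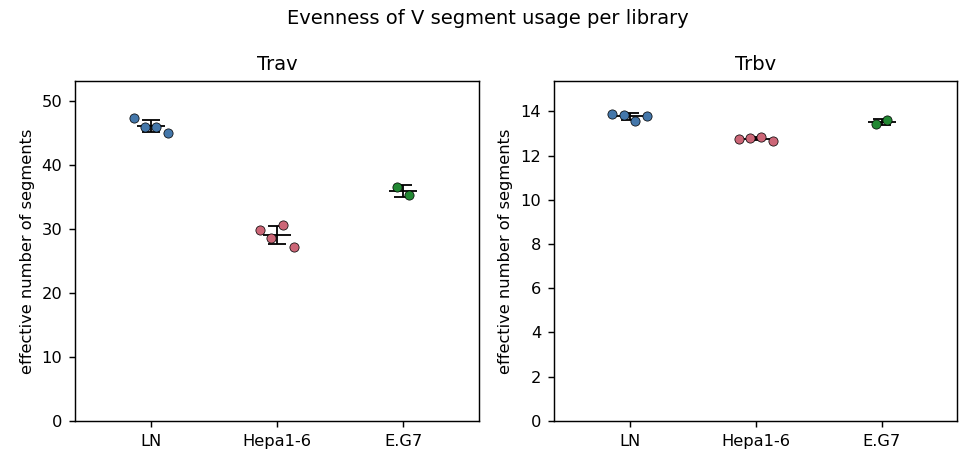
Effective number of Trav and Trbv segments per library in LN, Hepa1-6 and E.G7; points are libraries, horizontal marks the mean and bars 1 SD. Trav means are 46.1, 29.1 and 36.0 and Trbv means 13.8, 12.8 and 13.5.

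The distance between libraries was described by the percentage of counts that would have to move to another segment to make their shares equal. For Trav its median was 9.53 within LN, 9.84 within Hepa1-6 and 11.4 for the E.G7 pair. Between groups it was 25.3 for LN and Hepa1-6, 22.9 for LN and E.G7, and 30.3 for the tumours. For Trbv the medians were 2.71, 4.71 and 2.95 within groups and 13.5, 8.36 and 12.2 between them. Every distance between libraries of different groups exceeded every distance within a group for both chains, the nearest values being 12.7 within and 20.8 between for Trav and 5.56 within and 7.86 between for Trbv. The J segments of these chains did not separate in this way. Distances reached 13.5 within Hepa1-6 against 6.72 as the lowest between groups for Trbj, and 10.2 within E.G7 against 8.35 for Traj. J counts were fewer than V counts in the tumours. Trbj had 663 to 798 per library in Hepa1-6 and 840 to 897 in E.G7, and Traj 2238 to 2434 and 1726 to 1901. Fewer counts can raise such distances by sampling alone, and this was not tested.

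Near-identical copies limit the Trav values. The mouse alpha locus holds a repeated block, marked d and n in segment names. Of 128 Trav segments found in the GENCODE annotation, 48 had a copy of identical sequence, and these held 4.29% of Trav counts, while 0 of 35 Trbv segments had one. A read from an identical copy cannot be assigned by sequence, and the labels do not state how the authors' counting treated such reads. In 7 Trav segments, chosen after their counts were seen, 1 library held at least 30 counts and at least 5 times the next library of its group. All 7 had an identical copy. Trav6-6 had 166, 17, 12 and 8 counts in LN, and its identical copy Trav6d-6 had 0, 0, 110 and 0. Trav6d-6 also had 39 counts in Hepa1-6 replicate 2, where Trav6-6 had 8. The libraries with many counts thus differed between the copies. The last 300 bases of their shared coding sequence are shown for this reason, with the same use of capitals. Trav6-6 lies on mm10 at chr14:53516929-53517366 and Trav6d-6 at chr14:52821922-52822359, both on the plus strand.
Trav6-6: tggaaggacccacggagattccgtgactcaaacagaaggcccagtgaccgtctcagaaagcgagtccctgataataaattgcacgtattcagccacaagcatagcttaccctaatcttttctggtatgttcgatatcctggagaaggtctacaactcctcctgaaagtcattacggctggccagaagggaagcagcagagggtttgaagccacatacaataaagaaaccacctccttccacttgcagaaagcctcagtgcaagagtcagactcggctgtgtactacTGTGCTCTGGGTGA

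When d and n copies were added to their counterparts, an alternative chosen after seeing the data that leaves 58 Trav units, the tumour leaders stayed apart. The merge went by name, so some units join segments that are less alike. Trav13n-4 differs from Trav13d-4 at 27 of 331 aligned bases. Trav14-2 held 2.63%, 11.9% and 1.58% in LN, Hepa1-6 and E.G7, Trav13-4 held 1.57%, 0.812% and 9.03%, and Trav9-1 held 3.86%, 4.82% and 8.80%. The leading unit in LN became Trav14-3, at 9.44% ± 0.626 (SD, n = 4), so that the largest share in E.G7 was no longer above that in LN. The effective numbers were then 28.2, 22.5 and 25.2. With merged copies 5 V segments in place of 8 were called higher in Hepa1-6 than in LN.

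Gamma chain constant regions moved in different directions. Trgc2 was at 3.99, 4.43, 3.09 and 3.73 in LN, 15.0, 12.9, 12.9 and 13.4 in Hepa1-6, and 100.1 and 98.3 CPM in E.G7. It rose stepwise without overlap, by 4.70 on the log2 scale in E.G7 against LN (SE 0.12, adjusted p = 5.05e-14 in edgeR) and by 1.83 in Hepa1-6 (SE 0.11, adjusted p = 5.76e-10 in edgeR). Trgc4 was at 4.63, 5.40, 4.26 and 3.77 in LN, 1.51, 1.32, 0.825 and 0.536 in Hepa1-6, and 32.8 and 32.0 CPM in E.G7. It was lower than LN in Hepa1-6 (log2 fold change -2.10, SE 0.24, adjusted p = 9.7e-07 in edgeR) and higher in E.G7 (log2 fold change 2.84, SE 0.22, adjusted p = 1.57e-08 in edgeR). Trgc1 averaged 9.53 ± 1.63 in LN, 0.876 ± 0.179 in Hepa1-6 and 1.83 ± 0.457 CPM in E.G7, and was called lower in both tumours against LN. Trgc3 stayed under 0.48 CPM in every library and did not pass the filter. Trgc1, Trgc2 and Trgc3 are close copies of each other, so the split of reads between them is uncertain.

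Trgv2, a gamma chain V segment outside the set of members, was the most abundant Trgv segment in both tumour groups. It was at 0.0395, 0.231, 0.121 and 0.194 in LN, 4.70, 4.84, 4.29 and 4.74 in Hepa1-6, and 28.1 and 29.3 CPM in E.G7. The order of groups was that of Trgc2, and its log2 fold change over LN was 7.56 in E.G7 and 4.93 in Hepa1-6 (adjusted p = 8.38e-13 and 8.05e-11 in edgeR). It lies at chr13:19336573-19337167 on the minus strand of mm10, within the same locus, and the last 300 bases of its coding part are shown because it is the gamma segment that rose with Trgc2, with the same use of capitals.
Trgv2: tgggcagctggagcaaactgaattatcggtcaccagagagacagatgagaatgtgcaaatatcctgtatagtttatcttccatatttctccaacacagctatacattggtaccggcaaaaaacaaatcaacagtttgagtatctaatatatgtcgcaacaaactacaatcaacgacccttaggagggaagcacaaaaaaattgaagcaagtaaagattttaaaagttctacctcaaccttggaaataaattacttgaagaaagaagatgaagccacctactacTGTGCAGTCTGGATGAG

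Trdc, the delta chain constant region, went the other way. It was at 6.68, 7.48, 7.79 and 6.37 in LN, 1.43, 1.08, 1.24 and 2.19 in Hepa1-6, and 1.08 and 2.10 CPM in E.G7. Both tumour groups lay below LN (log2 fold changes -2.25 and -2.15, adjusted p = 6.94e-07 and 2.43e-05 in edgeR). Its annotated exons overlap Trdv5 and Gm43434, and without a stated strand setting reads of these genes cannot be told apart. Of 8 gamma delta T cell genes tested, 5 were higher and 3 lower in Hepa1-6 against LN and 4 higher and 2 lower in E.G7, where 68% and 59.9% of all genes were called. Those besides the receptor genes were low, with Sox13 at 0.413, 1.13 and 0.519 CPM and Blk at 0.325, 1.70 and 1.20 CPM in LN, Hepa1-6 and E.G7.

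**Figure D5:**
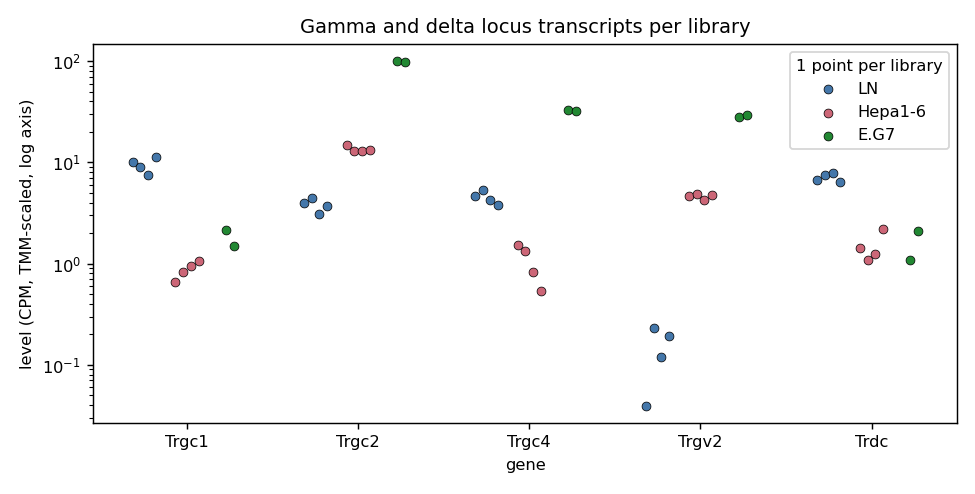
Levels in CPM (TMM-scaled, log axis) of Trgc1, Trgc2, Trgc4, Trgv2 and Trdc, with 1 point per library in LN, Hepa1-6 and E.G7. Trgc2 and Trgv2 step up from LN to Hepa1-6 to E.G7, Trgc4 is lowest in Hepa1-6 and highest in E.G7, and Trgc1 and Trdc are highest in LN.

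Joining segments, a readout that the choice of members did not use, showed no dominant segment. All 14 Trbj segments were lower in each tumour group than in LN, with medians of -2.05 in Hepa1-6 and -1.91 in E.G7. Of 48 Traj segments tested, 28 were lower in Hepa1-6 and 35 in E.G7, where 31.1% and 27.2% of all genes were lower. With scaling to Trac, Trbc1 and Trbc2 the 14 Trbj calls held, while 1 Traj segment was higher and 1 lower in Hepa1-6, and 9 were lower in E.G7. Trbj1-5 led in LN (13.8% of Trbj counts) and Trbj2-7 in Hepa1-6 (14.2%) and E.G7 (14.1%). Traj17 led in LN (8.77% of Traj counts) and Hepa1-6 (7.91%), and Traj19 in E.G7 (8.57%). The effective number of Traj segments was 22.3 ± 1.102 in LN (SD, n = 4), 22.0 ± 0.846 in Hepa1-6 (n = 4) and 19.98 ± 0.507 in E.G7 (n = 2), and that of Trbj segments 11.8, 11.6 and 11.9. Trbj totals were small in the tumours, at 718 ± 57.0 counts in Hepa1-6 (SD, n = 4).

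Most genes of the receptor complex were lower in the tumours with TMM scaling. Scaling to the constant regions, which moves the median of all genes to 0.68 and 0.70, turned their sign but left their medians below that of all genes. Of 10 such genes, 7 were lower in Hepa1-6 than in LN and 1 higher, where 31.1% and 37% of all genes were, with a median log2 fold change of -0.28, against 2 lower and 7 higher with a median of 0.36 under that scaling. In E.G7 7 were lower, where 27.2% of all genes were, with a median of -0.40, against 1 lower and 5 higher with a median of 0.29. The summed level of the 10 genes was 5311 to 5734 in LN, 4146 to 4210 in Hepa1-6 and 4341 to 4393 CPM in E.G7. Trat1, an adaptor that associates with the receptor complex, fell by 1.75 in Hepa1-6 and by 1.21 in E.G7 on the log2 scale. Lck, the kinase that starts receptor signalling, fell by 0.69 and 0.66, but was not called under that scaling (adjusted p = 0.495 and 0.712 in edgeR). Cd3g was at 672 ± 64.9, 603 ± 42.2 and 663 ± 31.7 CPM in LN, Hepa1-6 and E.G7 and was called in neither tumour. Among 8 genes of receptor gene recombination, 5 were tested, of which 1 was higher and 3 lower in Hepa1-6 and 3 higher and 2 lower in E.G7 than in LN, where 68% and 59.9% of all genes were called. Dntt was higher in E.G7 than in LN by 4.34 on the log2 scale (adjusted p = 1.82e-12 in edgeR) and Lig4, a DNA ligase of end joining, by 1.45 (adjusted p = 5.9e-05 in edgeR). Prkdc, a kinase of the same repair pathway, fell by 1.04 in Hepa1-6 and by 0.74 in E.G7, the latter not called when scaled to the constant regions (adjusted p = 0.745 in edgeR).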

How the data were processed

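RNA of sorted Treg cells was sequenced on a BGISEQ-500, per the labels' protocols. The authors deposited whole-number read counts per gene with exon coordinates, in the layout of featureCounts, per the file headers. The submitters' processing notes name HISAT2, featureCounts, Subread, RSEM, DESeq2 and mm10. Versions, strand setting and the treatment of reads that match several genes are not given in the sources used here. The 10 deposited FPKM tables, which list 0 of the members, were not used.

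Counts of all genes were fitted with edgeR 4.0.16 in R 4.3.3 (filterByExpr, TMM scaling, robust quasi-likelihood, 1 term per group, all 10 libraries), with Benjamini-Hochberg adjustment over 20068 genes and a threshold of 0.05. The fit was also run on simulated data in which the changed genes rose in E.G7 only, at a fixed spread. In the data themselves genes were called in both directions, so the simulation gives no error rate for them. Shares and effective numbers were computed per library and compared by exact two-sided permutation tests of group means. The gene length deposited by the authors served for shares per length. Sequences and coding parts came from GENCODE vM21 transcripts, and the cysteine codon was the first TGT or TGC in the last 9 codons that stands 2 codons after TAT or TAC. Depth is given by the counts in the text, and intervals for single shares were not computed because replicates were available.

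Members and gene lists were chosen with earlier results of these data known. Segments named were the constant regions, the 5 most used Trav and Trbv segments, the 2 largest share gains and losses per contrast and chain, and the 3 largest called log2 fold changes each way at 5 CPM or more without overlap of libraries. Joining segments with the highest mean share and the list genes with the smallest adjusted p were added. Any other gene was named after its values were seen. Alternatives were RLE and upper-quartile scaling, scaling to receptor constant regions, no filter, DESeq2 1.42.0, fits of 2 groups, a replicate block, merged families or copies, shares per length and leaving out each library. The result of 1 list of marker genes is not reported here.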

Additional observations from a re-analysis of the deposited data

Results flagged for a closer look

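Among 90 groups of 4 libraries checked for 1 library apart from the rest, 12 were marked. Of these groups 14 belong to the 7 Trav segments that were chosen because 1 library was far above the others, and they hold 8 of the marks. The other 76 groups hold 4, where chance marks about 1 in 20. In LN, replicate 2 was high for Trbv3 (78.3 CPM against 67.3 to 67.8), Trbv31 (53.8 against 43.9 to 45.1 CPM) and Trbv12-1 (32.1 against 27.5 to 28.2 CPM), and low for Trav12n-3 (0.0771 against 0.155 to 0.161 CPM). LN replicate 3 was high for Trav2 (1.73 against 1.34 to 1.36 CPM) and Trav6d-6 (4.42 CPM against 0). LN replicate 1 was high for Trav4n-4 (4.47 against 0.0777 to 0.463 CPM) and Trav6-6 (6.56 against 0.311 to 0.655 CPM), and LN replicate 4 for Trav5d-4 (1.51 against 0.0791 to 0.116 CPM). In Hepa1-6, replicate 3 was high for Trav14n-1 (2.43 against 0.0413 to 0.124 CPM) and Trav4n-4 (11.3 against 0.248 to 0.660 CPM), and replicate 2 for Trav6d-6 (1.61 against 0 to 0.0408 CPM). The 7 Trav segments with a single high library each have a copy of identical sequence.

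Of the named genes, 3 changed in opposite directions in the tumours against LN, with the difference between the tumours called by edgeR. The log2 fold change of E.G7 against Hepa1-6 was -3.19 for Trav14-2, 4.80 for Trav13n-4 and 4.94 for Trgc4.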

How the results depend on the processing

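Of 46 fold changes of named genes, 621 alternative values kept direction and side of the threshold and 15 did not. Among these, Trbv15 in E.G7 against LN turned to 0.23 and Trac to 0.50 when libraries were scaled to Trac, Trbc1 and Trbc2, and Trac in Hepa1-6 against LN turned to -0.12 with upper-quartile scaling, which moved the median of all genes to -0.13. Scaling to the constant regions moved the median of all genes to 0.68 and 0.70 against LN and gave 26 V segments higher and 32 lower in Hepa1-6 against LN and 17 and 21 in E.G7 against LN. Merged copies gave 5 higher in Hepa1-6, and no filter gave 13 lower in E.G7 against Hepa1-6, with more genes tested. Leaving out 1 library gave 12 to 21 segments higher and 13 to 20 lower in E.G7 against Hepa1-6. With families merged, the largest Trbv share differed by 0.42 in Hepa1-6 against LN and by -2.23 in E.G7 against Hepa1-6, and the Trbv effective number by 0.26 in E.G7 against LN, where counts divided by length gave 0.0038. Without the leading E.G7 segment the largest Trbv share differed by 1.53 in Hepa1-6 and 1.93 in E.G7 from LN, and with merged copies the largest Trav share by -0.41 in E.G7 from LN. The causes were not tested.

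Same-numbered libraries did not deviate together (0 of 8 pairs with a correlation over 0.1, from -0.049 to 0.029), so the numbers were not taken as pairs. With a replicate block, 8 V segments were higher and 53 lower in Hepa1-6 against LN, 3 and 46 in E.G7 against LN, and 17 and 16 in E.G7 against Hepa1-6. With 2 E.G7 libraries, no exact test against E.G7 can pass 0.05, and after adjustment none of the 18 tests can. Trav totals of 5486 to 7364 counts limit segments of low share.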
